A study of Mus musculus with 21 samples.

Results

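The spread of transcript levels from tumour to tumour was measured within 2 models of mouse liver cancer on a C57BL/6J background: 6 liver tumours of untreated Trp53 knockout (KO) mice and 7 liver tumours of mice with wild-type Trp53 that had been given the carcinogen N-nitrosodiethylamine (DEN). The 13 arrays were 13 of the 21 in the series, and the remaining 8 held tumour-free livers of 4 untreated KO mice and of 4 untreated wild-type (WT) mice, used here as background. A gene's spread was the SD over the arrays of a group of its level, that is the log2 processed signal minus the array's own 75th percentile. Genes were kept if their probe was well above background on all 13 arrays, which left 19560 of 39429 probes and 15588 genes. Group means were not compared.

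The KO tumours were each labelled HCC/CCC combined, for hepatocellular and cholangiocellular carcinoma; the share of either type in a tumour is not stated. The DEN tumours were labelled hepatocellular carcinoma, and their mice had received 10 µg of DEN per g body weight at day 15. The number before the T in a title was read as the mouse, which gave 5 KO mice (KO tumours 5 and 6 from 1 mouse) and 5 DEN mice (DEN tumours 4 and 5 from 1 mouse, 6 and 7 from another). The sources used here give neither the Trp53 allele, nor the cells it was deleted in, nor sexes or ages. Trp53 did not pass the filter. Its level lay between -5.35 and -3.77 in the KO tumours, with 5 of 6 above background, and between -3.10 and -2.19 in the DEN tumours, so the groups did not overlap. Whether its probe lies in the deleted part is not known. Alb, which encodes the main plasma protein of hepatocytes, was among the brighter transcripts in all 13 tumours, at 5.04 to 8.46 in KO and 8.83 to 9.75 in DEN.

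Tumours of 1 kind differ from each other because each grows from its own founder cell, takes up its own mix of immune, stromal and vessel cells, and keeps more or less of the program of the tissue it came from. In liver that program is large: hepatocytes make most plasma proteins, urea and bile acids, and divide these tasks along the lobule, with urea synthesis near the portal vein and glutamine synthesis and much drug oxidation near the central vein. In bulk RNA, fewer cells of a type and less RNA per cell of that type cannot be told apart.

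The arrays lay on slides that did not cross the groups. KO tumours 1 to 3 shared slide 4 and KO tumours 4 to 6 shared slide 5, which was scanned on another day. The 75th percentile of the intensity was 951 to 1357 on slide 4 and 2045 to 4258 on slide 5, against 512 to 884 on the DEN arrays. DEN tumours 1, 5 and 7 shared slide 1, and 2, 3, 4 and 6 shared slide 2, so the tumours of each DEN pair lay on different slides. The DEN slides were also scanned on different days: slide 1 on the day of slide 4, and slide 2 on a day that neither KO slide shared. In KO tumours slide and mouse cannot be told apart. No Y-linked probe was above background in KO tumours 1 and 2 (0 of 5), against 2 to 4 of 5 in every other tumour. The median SD between repeated spots of 1 probe on 1 array was 0.053 to 0.117 over the 21 arrays.

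The median SD was 0.481 ± 0.036 over the 6 KO tumours and 0.383 ± 0.017 over the 7 DEN tumours (log2 units; errors are jackknife standard errors over arrays). The SD was higher in KO tumours for 64.2% of genes (± 6.77 percentage points). The difference was at least 2-fold in 3206 genes towards KO and in 1021 towards DEN. An SD above 1, which is a typical deviation of 2-fold, was found for 1850 genes in KO tumours and 1005 in DEN tumours, with 464 genes in both. Across genes the 2 SDs ranked partly alike (Spearman's rho 0.46 over 15588 genes, which are not independent replicates). The excess in KO was present at low, middle and high expression: 59.7% of the dimmest genes, 63.8% of the middle and 69.0% of the brightest had the higher SD in KO.

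A large part of the wider spread of KO tumours lay between their slides. The median gene had 38.6% of its KO variance between slides 4 and 5, and 16.3% of its DEN variance between slides 1 and 2. With each slide centred on its own mean, the median SD was 0.378 in KO tumours and 0.337 in DEN tumours, and 55.8% of genes were higher in KO. Among the 6 tumours scanned on 1 day (KO tumours 1 to 3 and DEN tumours 1, 5 and 7), the medians were 0.328 and 0.289 and 54.0% of genes were higher in KO. Without slide 5 (an alternative chosen after seeing the data) the KO median was 0.328 and 40.2% of genes were higher in KO; SDs over 3 arrays are then set against SDs over 7, which by itself lowers both values, so they give no direction.

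**Figure D1:**
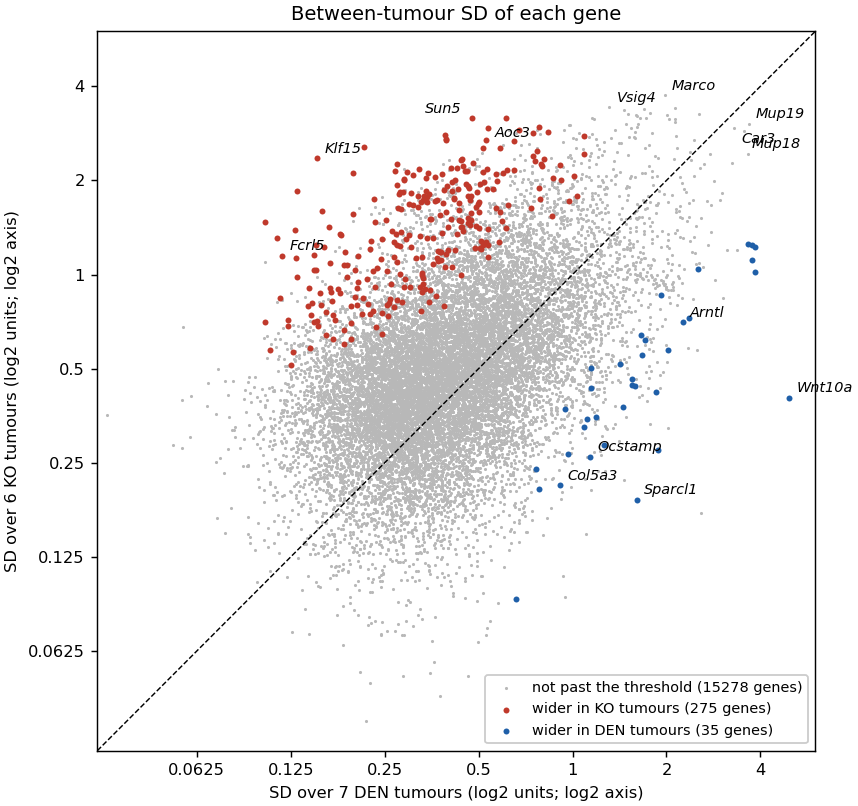
Each point is 1 of 15588 genes; the x axis is its SD over 7 DEN tumours and the y axis its SD over 6 KO tumours, both in log2 units on log2 axes, with the dashed line marking equal SDs. Red marks the 275 genes past the threshold with more spread in KO and blue the 35 with more in DEN; Wnt10a stands farthest to the right at an SD of 4.94 in DEN and 0.40 in KO.

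Measured over whole profiles, a KO tumour stood farther from the rest of its group than a DEN tumour did. The distance is the root mean square over genes of an array's difference from the mean of the others, scaled for group size. Per mouse it was 0.724 ± 0.091 in KO (SD, n = 5 mice) and 0.587 ± 0.057 in DEN (SD, n = 5 mice). The difference of 0.137 gave p = 0.0238 in an exact two-sided permutation test over mice (adjusted p = 0.0238 over the 3 distance comparisons made; mice of 1 group share its mean). KO tumour 4 was the most distant at 0.863, followed by KO tumour 1 at 0.758. Among DEN tumours the most distant was tumour 2 at 0.688, and the other 6 lay between 0.500 and 0.617. The difference did not remain in the tumours of the shared scan day, where it was -0.016 (exact permutation p = 0.70, with 0.1 the smallest p that 3 against 3 mice allow), nor without slide 5, where it was -0.047 (exact permutation p = 0.536). It was 0.081 without KO tumour 4 and 0.142 without KO tumour 1 (both exact permutation p = 0.0635), and 0.130 without DEN tumour 3 (exact permutation p = 0.0556). The livers gave the background: 0.283 ± 0.053 (SD, n = 4) in KO and 0.472 ± 0.069 (SD, n = 4) in WT. Every KO tumour lay above every KO liver, and the difference was 0.441. Between DEN tumours and WT livers the difference was 0.114. Here the mice only just did not overlap, with the lowest DEN mouse at 0.558 and the highest WT liver at 0.555. As single arrays, DEN tumours 4 and 6 (0.500 and 0.508) lay below WT liver 4. Both differences from livers gave p = 0.00794 in exact permutation tests, the smallest that 5 against 4 mice allow (adjusted p = 0.0119). Each tumour group lay on 2 slides and each liver group on 1.

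Pairs of tumours showed how much mouse and slide shared. The 2 KO tumours of 1 mouse, which also shared a slide, differed by a root mean square of 0.434 (log2 units). KO tumours of different mice on 1 slide differed by 0.664 to 0.972 over 5 pairs, and on different slides by 1.003 to 1.297 over 9 pairs, with no overlap between these classes. The 2 DEN pairs from 1 mouse each, split over slides, differed by 0.772 and 0.866. DEN tumours of different mice differed by 0.609 to 0.891 on 1 slide (9 pairs) and by 0.773 to 0.981 on different slides (10 pairs). Against pairs that were also split over slides, DEN tumours 4 and 5 (0.7715) lay just below all 10 (lowest 0.7733), and tumours 6 and 7 lay within their range. Of the variance among KO tumours, 52.2% lay on the first principal component, with tumours 1 to 3 on one side (0.35 to 0.63) and tumours 4 to 6 on the other (-0.50 to -0.43). In DEN tumours it held 27.8% and separated tumour 2 (0.52) from tumours 1 and 5 (-0.34 and -0.40).

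**Figure D2:**
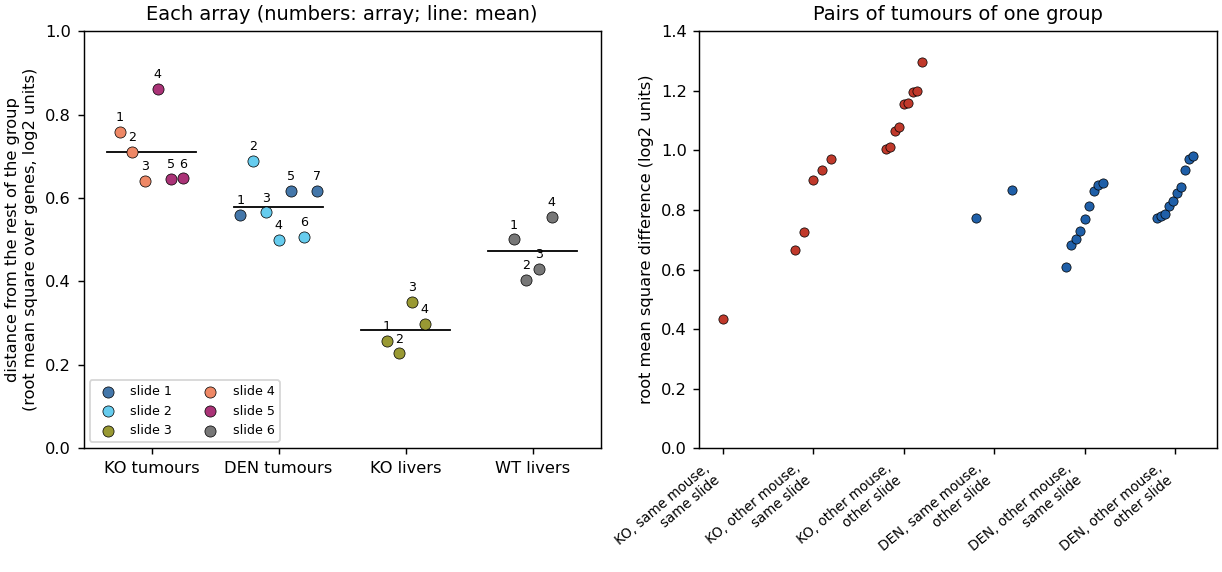
Left, the distance of each array from the rest of its group (root mean square over genes, log2 units), coloured by slide, numbered by array, with a line at the group mean; KO tumour 4 is highest at 0.863 and KO livers lie between 0.227 and 0.350. Right, the root mean square difference of each pair of tumours of 1 group, by shared mouse and shared slide; KO pairs on different slides (1.003 to 1.297) lie above all others.

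The most variable named genes of the KO tumours were led by genes of resident macrophages. Marco, a scavenger receptor of macrophages, had the highest SD of all genes, 3.75, with levels of 1.28, 1.32, -3.14, -2.71, 4.02 and 6.52 in KO tumours 1 to 6. The pair from 1 mouse, tumours 5 and 6, was high, tumours 3 and 4 were low, and the others lay between. In DEN tumours Marco had an SD of 1.98, with levels from -1.91 through a median of 0.09 to 3.42. Vsig4, a complement receptor of liver macrophages, had an SD of 3.43 in KO (1.31 in DEN) with levels of -0.92, 1.68, -1.54, -2.52, 3.89 and 6.24. Cd5l, a protein that macrophages secrete, had an SD of 3.15 (1.17 in DEN), and Fcna, the lectin ficolin A, 3.17 (1.15 in DEN). Each of the 4 was highest in KO tumour 6. Their spread lay within slides rather than between them: the share of KO variance between slides was 14.2 to 38.4%. None of the 4 passed the test (adjusted p = 0.17 to 0.66, limma on deviations), in which the deviations of a gene must also be alike from mouse to mouse.

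Genes of other blood cells followed. Camp, a neutrophil granule peptide, had an SD of 3.01 in KO tumours (0.98 in DEN): it stood at 2.83 and 2.80 in tumours 5 and 6 and between -3.69 and -2.61 in the other 4. Gzma, a protease of cytotoxic lymphocytes, had an SD of 2.90 (0.63 in DEN) and was highest in KO tumour 2, at 3.67, against -4.34 to 0.95 elsewhere. Jchain, which joins secreted antibodies, went the other way: KO tumour 2 was lowest at -1.05 and the other 5 lay between 4.12 and 5.86. Of the 100 highest SDs in KO, 40 belonged to transcripts with no symbol in the name table, and 25 of these lay on chromosomes 6 and 12, which carry the antibody kappa and heavy chain loci. Of these 25, 24 were lowest in KO tumour 2, which held the lowest level of 2168 of all 15588 genes. The 11 on chromosome 6 were spread widely, from 68966568 to 127184679 (build mm9). The 14 on chromosome 12 lay between 114525600 and 117247905. Whether each lies within such a locus was not tested. A list's mean deviation is the mean over its genes of the level minus the group mean. The B and plasma cell list had its lowest, -2.60, in KO tumour 2, and the macrophage list its highest, 1.79, in KO tumour 6. The T and NK cell list did not follow Gzma: its mean deviation was 0.04 in KO tumour 2 and highest in KO tumour 5, at 0.87. Of its 11 genes, 5 had the higher SD in KO (45.5%, against 64.2% of all genes), and its median SD was 0.69 in both groups.

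Hepatocyte enzymes made a further block of the KO list. Cyp2f2, a periportal cytochrome P450, had an SD of 3.23 (2.01 in DEN): it was low in KO tumours 1 to 3 (-3.30, -2.32 and -2.61) and stood at 4.84, -0.57 and 2.41 in tumours 4 to 6, so the slides did not overlap. Gsta2 and Gstm3, which conjugate glutathione to reactive compounds, had SDs of 2.83 and 2.97 (1.05 and 0.78 in DEN), again without overlap of the slides. A second passing probe of Gstm3 gave 0.90 in KO and 0.70 in DEN, so the size for this gene depended on the probe. Ces1f, a carboxylesterase, and Car3, a carbonic anhydrase of muscle, fat and liver, were instead lowest in KO tumour 2 (-6.75 and -5.11), and their spread was also wide in DEN tumours (SDs of 2.14 and 3.29).

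A last set in the KO list stood at 2 levels, 1 for each slide. Sun5, a nuclear envelope protein of sperm, had levels of -2.48, -2.08 and -2.37 in KO tumours 1 to 3 and 3.80, 3.52 and 3.01 in tumours 4 to 6, and 99.2% of its KO variance lay between slides. Aoc3, an amine oxidase of vessel walls, and Msi1, an RNA-binding protein of progenitor cells, followed the same division with 97.4 and 98.1% between slides. Within slides the KO SDs of Sun5, Aoc3 and Msi1 were 0.32, 0.53 and 0.44, against 3.16, 2.94 and 2.89 over all 6 arrays. In DEN tumours their SDs were 0.48, 0.53 and 0.67, and all 3 passed the test of spread (adjusted p = 8.65e-06, 0.000115 and 0.000221, limma on deviations). For such genes 1 difference between slides gives every KO mouse a similar deviation, so these p-values do not measure spread from mouse to mouse. With slides centred, no gene passed. Of the 100 highest SDs in KO, 51 had slides that did not overlap, against 35.7% of all genes.

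Some markers of duct cells and hepatocytes also varied within the KO group. The biliary list as a whole divided by slide, with mean deviations of 0.33, 0.24 and 0.83 in KO tumours 1 to 3 and -0.44, -0.55 and -0.41 in tumours 4 to 6. Of its 21 genes, 16 had the higher SD in KO (64.2% of all genes did), and 6 of 21 in the shared scan day (54.0% of all genes). Krt19, the keratin of bile ducts, had an SD of 2.80 in KO tumours and 1.10 in DEN tumours. It stood at 3.32, 2.72 and 3.41 in KO tumours 1 to 3, at 1.05 and 2.14 in tumours 5 and 6, and at -3.98 in tumour 4. Krt7, its partner in duct cells, did not pass the filter: it was not above background in KO tumour 4 and lay between -0.73 and 1.09 in the other 5. Epcam, a surface protein of duct and progenitor cells, was above background in all 6, lowest in tumour 4 at 0.24. Other genes of duct and progenitor cells did not single out tumour 4: Sox9, a transcription factor of duct cells, was at 1.68 there and ranged from 0.48 to 2.17 over the 6 (SD 0.71, against 0.52 in DEN). Spp1, which encodes osteopontin, was at 6.92 there within a range of 5.02 to 7.82 (SD 1.10, against 0.98 in DEN). The same tumour was highest in the group for Alb (8.46, against 5.04 to 7.44), for the fetal protein gene Afp (2.08, against -1.07 to 0.24) and for the imprinted RNA H19 (7.69, against 1.02 to 4.89). Cps1, which starts the urea cycle, had an SD of 2.45 in KO and 0.51 in DEN, with -4.38, -2.88 and -1.79 on slide 4 and 0.23, 1.28 and 1.78 on slide 5 (adjusted p = 0.078, limma on deviations). In the 7 DEN tumours Cps1 lay between 2.66 and 4.22.

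**Figure D3:**
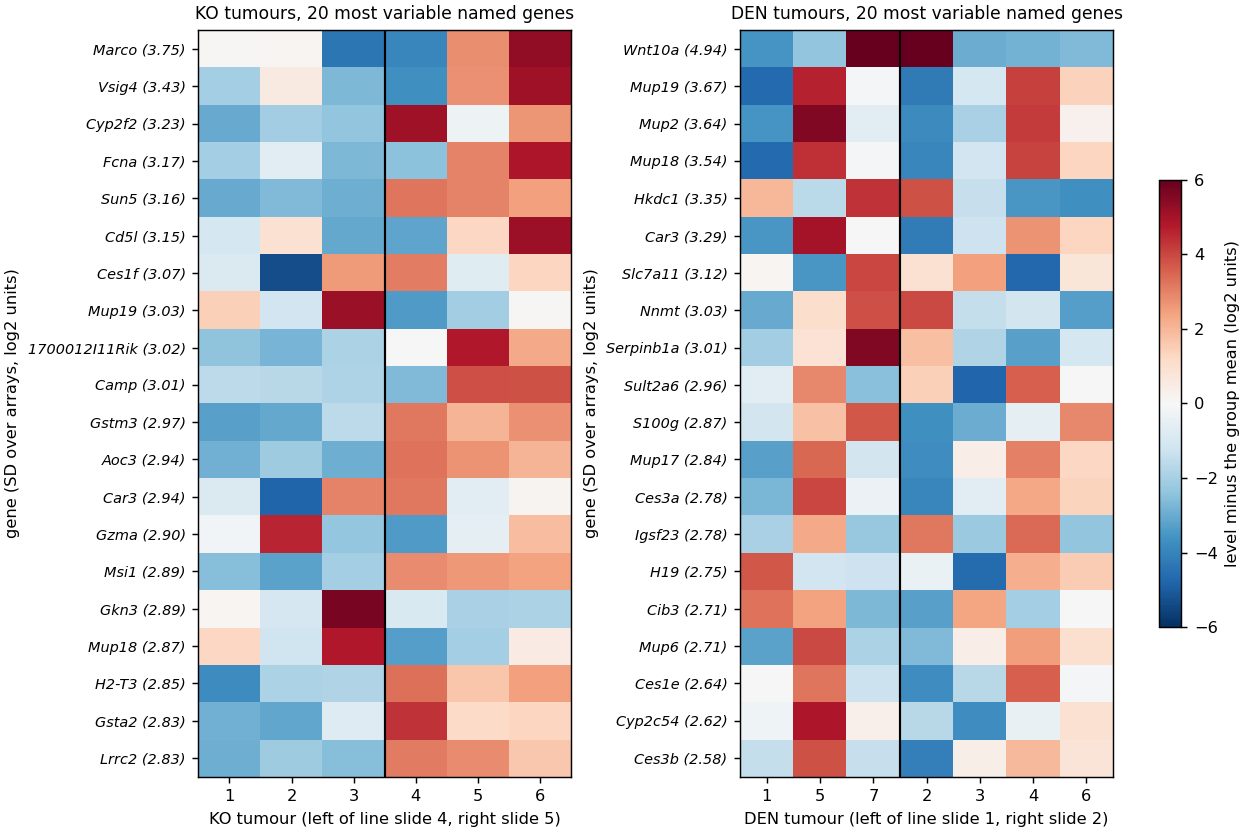
Level minus the group mean (log2 units, colour) of the 20 most variable named genes in each group, with the SD over arrays beside each name and a vertical line between the slides. In KO tumours Marco, Vsig4, Fcna and Cd5l are highest in tumour 6, while Sun5, Aoc3 and Msi1 divide at the line; in DEN tumours the Mup, Car3 and Ces3 genes are highest in tumour 5, and Wnt10a is high in tumours 2 and 7.

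The most variable gene of the DEN tumours was Wnt10a, a secreted ligand of the Wnt pathway. Its level was 4.54 in tumour 2 and 6.17 in tumour 7, and between -5.33 and -4.19 in the other 5, which gave an SD of 4.94. The 2 high tumours lay on different slides and came from different mice, and the second tumour of the mouse of tumour 7 stood at -4.48. In the 6 KO tumours it lay between 0.36 and 1.32 (SD 0.40). The spread was wider in DEN past the threshold (adjusted p = 0.0092, limma on deviations). Nnmt, which methylates nicotinamide, was also highest in tumours 2 and 7 (6.28 and 6.19), with tumour 5 at 3.37 and the other 4 at or below 1.24. Hkdc1, a hexokinase family member, stood at 3.90, 4.41 and 2.08 in tumours 2, 7 and 1 and between -3.58 and -1.31 in the rest. Serpinb1a, an inhibitor of neutrophil proteases, was highest in tumour 7 at 5.29 and lowest in tumour 4 at -3.56. S100g, a calcium-binding protein of epithelia, ran from -4.48 in tumour 2 to 2.95 in tumour 7 (SD 2.87, against 0.96 in KO; adjusted p = 0.14, limma on deviations). Nnmt and Hkdc1 had adjusted p = 0.092 in the same test and Serpinb1a 0.44.

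Among the 20 most variable named DEN genes, the largest family was that of the major urinary proteins. These are small carriers of pheromones that male mouse liver secretes in quantity under growth hormone. Unnamed transcripts with SDs as high, which followed the slides, are described further below. Mup19, Mup2, Mup18, Mup17 and Mup6 were among the 20. Their promoters are shown because the 5 genes moved together; each line gives the 60 bases before the transcription start from RefSeq (build GRCm38.p6), read along the gene's own strand, with the motif TATATAA in capitals.
Mup19: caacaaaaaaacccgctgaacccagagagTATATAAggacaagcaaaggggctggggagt
Mup18: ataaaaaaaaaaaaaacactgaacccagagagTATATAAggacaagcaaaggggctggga
Mup17: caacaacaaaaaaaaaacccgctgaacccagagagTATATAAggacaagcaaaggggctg
Mup2: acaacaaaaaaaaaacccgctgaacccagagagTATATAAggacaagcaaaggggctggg
Mup6: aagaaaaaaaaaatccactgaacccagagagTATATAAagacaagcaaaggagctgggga
They lie on chromosome 4 at chr4:61782225-61782284 (Mup19, minus strand), chr4:61674095-61674154 (Mup18, minus strand), chr4:61595833-61595892 (Mup17, minus strand), chr4:60139857-60139916 (Mup2, minus strand) and chr4:60003421-60003480 (Mup6, plus strand). The motif, searched on both strands, was present in 1.06% of 32851 promoter windows of this length and in all 5 of these. The 5 windows are near copies, with 51 to 58 of 60 bases matching in each pair, and do not count as 5 separate observations. A match is a description of the letters and not of a bound site.

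Mup19 had levels of -0.13, 0.32, 3.50, 8.64, 9.18, 5.92 and 4.42 in DEN tumours 1 to 7 (SD 3.67). DEN tumours 1 and 2 were lowest, the pair of tumours 4 and 5 highest, and the pair of tumours 6 and 7 between, with tumour 3 just below them. Mup2 and Mup18 were also highest in tumours 4 and 5, at 6.61 and 7.82 in tumour 4 and 7.96 and 8.15 in tumour 5, and lowest in tumours 1 and 2. In KO tumours Mup19 had an SD of 3.03 and was highest in tumour 3 at 7.26; Mup2, Mup17 and Mup18 were highest there too, and Mup6 in tumour 6 (-1.71, with tumour 3 at -1.81). The spread of Mup19 was not past the threshold in either direction (adjusted p = 0.83, limma on deviations). A list of male-biased liver genes, which holds other members of the family but none of these 5, had mean deviations of -1.32 and -1.56 in KO tumours 1 and 2, the 2 without Y-linked signal, and of 0.23 to 1.51 in the other 4. A list of female-biased liver genes was also lowest in these 2, at -0.46 and -0.85, against -0.35 to 0.91 in the other 4. Xist, the RNA of the inactive X chromosome, was above background in KO tumours 1 and 2 (-4.66 and -4.69) and in no other KO tumour. It was also above background in DEN tumours 2, 3, 4 and 6, at -5.32 to -4.81, which had Y-linked signal. These DEN tumours were the ones on slide 2. On slide 1 (DEN tumours 1, 5 and 7) Xist was not above background, so in DEN it divided by slide and split both pairs from 1 mouse. In DEN tumours, which all had Y-linked signal, the male-biased list ranged from -1.40 in tumour 2 to 1.77 in tumour 5. The probes of Mup17 and Mup18 share a run of 35 of 60 bases, the other 9 pairs of these probes 5 to 8, and signal shared with further members of the family was not tested.

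Genes of the zone around the central vein varied in DEN tumours around tumour 5. Glul, glutamine synthetase, stood at 4.53 in tumour 5 and between -1.72 and 0.91 in the other 6 (SD 1.99, against 0.60 in KO). Cyp2e1, which oxidises ethanol and DEN itself, was highest there at 8.14 and lowest in tumour 3 at -0.05 (SD 2.54 in DEN, 1.09 in KO), and a second probe gave 2.69 and 1.21. Rgn, a calcium-binding lactonase, reached 7.11 in tumour 5. Hamp, the iron hormone hepcidin and a gene of the acute phase list, was highest in the same tumour at 5.36. Tumour 4, of the same mouse, had 0.64 for Glul and 5.22 for Cyp2e1. Of the 100 highest SDs in DEN, 42 had their highest level in tumour 5 and 34 their lowest in tumour 2, whereas tumour 5 held the highest level of 2147 and tumour 2 the lowest of 3304 of all 15588 genes. Without tumour 5 the SD of Glul in DEN tumours was 1.06.

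Aurka, a mitotic kinase, was set by 1 tumour: 5.71 in DEN tumour 3 and between -1.49 and 1.54 in the others. Its SD in DEN was 2.51, and 1.09 without tumour 3. Slc7a11, which imports cystine for glutathione, was lowest in tumours 4 and 5 of 1 mouse (-6.16 and -4.92) and between -1.33 and 2.60 in the rest. H19 varied widely in both models, with an SD of 2.75 in DEN (-1.39 to 6.97) and 2.43 in KO (1.02 to 7.69). The 2 lists of the 100 highest SDs shared 14 genes, 14% of each. At their lower ends stood SDs of 2.36 in KO and 2.01 in DEN, with the next genes at 2.36 and 2.01.

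The test of spread called 275 genes with more in KO (1.76% of genes tested) and 35 with more in DEN (0.225%) at an adjusted p of 0.05 (limma on absolute deviations averaged per mouse, 5 against 5 mice). At an unadjusted p of 0.05 these counts were 1999 and 498. Of the 275, 240 had KO slides that did not overlap, against 35.7% of all genes; 170 of these were higher on slide 5 and 70 on slide 4. The median share of their KO variance between slides was 94.3%, and their median SD in KO was 1.4002 over all arrays and 0.366 within slides. Leaving out 1 array moved the total of 310 by over 1.5 times in 5 cases: to 152, 473, 175 and 190 without KO tumour 1, 2, 5 or 6, and to 205 without DEN tumour 1. With slides centred, or within the shared scan day, or without slide 5, no gene passed (limma; unadjusted p under 0.05 in 1412, 1172 and 977 genes towards KO and 894, 847 and 1078 towards DEN). The test sets a difference in mean deviation against the scatter of the deviations, so that genes at 2 even levels have the smallest error.

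Among genes past the threshold, Klf15 had the largest ratio of SDs towards KO. This gene, a regulator of amino acid and glucose metabolism, lay between 2.32 and 2.81 in all 7 DEN tumours (SD 0.15), and at -4.07, -2.01, -1.72, 2.13, 0.94 and 1.06 in KO tumours 1 to 6 (SD 2.36; adjusted p = 0.028). Galnt18, a glycosyltransferase of the Golgi, was high in KO tumours 1 to 3 (2.11 to 3.02) and lower in tumours 4 to 6 (-1.36 to 0.09), with an SD of 1.85 in KO and 0.13 in DEN. Ajm1, a protein of cell junctions, did not follow the slides: it was highest in KO tumours 5 and 6 (-1.20 and -0.65), next in tumour 1 (-2.24) and between -3.97 and -3.83 in the rest, with 29.2% of its KO variance between slides. Its SD was 1.47 in KO and 0.10 in DEN (adjusted p = 0.018). Relt, Fcrl5 and Tmem198 completed the 6 largest ratios among genes with a table symbol, with 88.6 to 97.5% between slides. The stem cell factor Sall4 (SD 2.71 in KO, 0.39 in DEN) and the stress cytokine Gdf15 (1.72 and 0.36) also passed, with 98.3 and 88.8% between slides.

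In the other direction, Wnt10a was followed by Sparcl1, Tceal3, D930007P13Rik, Ocstamp and Col5a3. Calls in this direction depended on the form of the test, as given above. Sparcl1, a secreted matrix protein, lay between 3.90 and 4.34 in all 6 KO tumours (SD 0.19), while DEN tumours ranged from -0.71 to 3.53 (SD 1.60; adjusted p = 0.035, limma on deviations). Col5a3, a collagen chain, lay between -0.13 and 0.46 in KO tumours. In DEN tumours it stood at 0.11, 0.18 and 0.32 in tumours 1 to 3 and between -1.74 and -1.01 in tumours 4 to 7, the 2 mice with 2 tumours each. Arntl, the clock factor BMAL1, named after its values were seen, divided the DEN tumours in the same way, at 0.12 to 0.66 in tumours 1 to 3 and -4.62 to -1.92 in tumours 4 to 7 (SD 2.25, against 0.70 in KO; adjusted p = 0.025, limma on deviations). Dbp, a clock output gene, stood at 5.80 to 6.00 in tumours 4 to 7 and at 4.06, 2.13 and -0.01 in tumours 1 to 3 (SD 2.36, against 1.53 in KO; adjusted p = 0.55). The sources used here do not give the hour of collection.

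A small set of DEN transcripts followed the slide and not the mouse. Among the 35 were 5 transcripts without a symbol, 4 of them between chr9:3003722 and 3038316 and 1 at chr2:98507014-98507072 (build mm9), singled out after their values were seen. Each stood above 4.87 on the 4 arrays of slide 2 and below 1.30 on the 3 arrays of slide 1, including both DEN pairs from 1 mouse. Their SDs in DEN were 3.66 to 3.86, among the highest of all genes (4.94 for Wnt10a, 3.67 for Mup19). Speer4d showed the same division, at -1.58 to -0.50 on slide 2 and -6.15 to -5.30 on slide 1. D930007P13Rik, named above, also divided by slide. In all, 10 of the 35 had DEN slides that did not overlap, against 18.2% of all genes. A gap of more than 2 log2 units between the nearest arrays of the 2 slides was found for 27 genes in DEN and 132 in KO.

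Lists of genes by role showed which programs varied in which model; they are described by counts and medians beside those of all genes, with no test. The mature hepatocyte list was more variable in KO tumours: 27 of its 30 genes had the higher SD in KO, against 64.2% of all genes, and its median SDs were 1.24 in KO and 0.64 in DEN. The count was 22 of 30 within slides, 25 of 30 in the shared scan day and 22 of 30 without slide 5, where the shares over all genes were 55.8, 54.0 and 40.2%. The mean deviation of the list in KO tumours 1 to 6 was -1.75, -0.56, -0.18, 0.99, 0.60 and 0.89, and within -0.44 to 0.37 in DEN. For the B and plasma cell list the counts were 7 of 8 genes higher in KO, 7 of 8 within slides and 8 of 8 without slide 5, but 5 of 8 without KO tumour 2.

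Other lists with more spread in KO did not keep that excess in every subset. The periportal list, which holds the urea cycle, had 11 of 14 genes higher in KO (median SDs 1.59 and 0.73), but 6 of 14 in the shared scan day. Conjugating enzymes had 27 of 35, and 17 of 35 in the shared scan day. All 8 erythroid genes, which mark red blood cells in the piece, were higher in KO, and 2 of 8 in the shared scan day. Oxidative phosphorylation subunits had 57 of 69, with 55 of 69 within slides and 31 of 69 in the shared scan day. Their SDs were small (medians 0.44 and 0.31). Cytosolic ribosomal proteins were near the share of all genes over all arrays, with 52 of 75 (69.3%, against 64.2%). They had 70 of 75 within slides (all genes 55.8%) and 15 of 75 without slide 5 (all genes 40.2%).

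Most cell division genes had the higher SD in the DEN tumours. As few as 3 of 28 cell cycle genes had the higher SD in KO, and the median SDs were 0.501 in KO and 0.813 in DEN. In tumour-free livers the list had a median SD of 0.811 in WT, as high as in DEN tumours, and of 0.241 in KO. Signal above background was required in the tumours only, so these liver SDs can include values near background. The count was 0 of 28 within slides, 5 of 28 in the shared scan day, 4 of 28 without slide 5, and 2 to 5 with any 1 array left out. The mean deviation of the list in DEN tumours 1 to 7 was -0.95, -0.02, -0.70, 0.79, -0.09, 0.23 and 0.76, so tumours 1 and 3 were low and 4 and 7 high. Mki67, a marker of dividing cells, had an SD of 0.89 in DEN (-1.82 to 0.47) and 0.36 in KO (2.04 to 2.94; adjusted p = 0.38, limma on deviations). None of the 28 cell cycle genes passed the test in either direction, but 1.99% of all genes did, so a list of this size shows little by this.

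Matrix genes went the same way. Of 25 matrix and stellate cell genes, 8 had the higher SD in KO, 4 within slides and 2 in the shared scan day. Col1a1, the main collagen chain of scar tissue, ranged from -0.30 to 4.90 in DEN tumours, highest in tumour 2 and lowest in tumour 1 (SD 1.72), and from 4.80 to 6.11 in KO tumours (SD 0.49; adjusted p = 0.20, limma on deviations). Immediate early and heat shock genes had 8 of 27 higher in KO, circadian clock genes 5 of 15 and endoplasmic reticulum stress genes 5 of 23. Of the 15 clock genes 1 passed the test, Arntl towards DEN, where 0.225% of all genes were called. The perivenous list had 4 of 13 higher in KO and median SDs of 1.09 and 1.32.

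Of 28 p53 target genes, 12 had the higher SD in KO (42.9%, against 64.2% of all genes), with median SDs of 0.46 and 0.56; Gdf15 was the 1 member past the threshold, where 1.76% of all genes were called towards KO. Cdkn1a, the cell cycle inhibitor that p53 induces, had an SD of 0.61 in KO (-2.60 to -0.84) and 1.09 in DEN (-2.30 to 0.80; adjusted p = 0.43, limma on deviations). The macrophage list had 10 of 13 genes higher in KO (76.9%, against 64.2% of all genes), with median SDs of 0.77 and 0.70. Its median log2 SD ratio (KO over DEN) was 0.30, near the 0.31 of all genes and below Marco (0.92) and Vsig4 (1.39). In the shared scan day 3 of the 13 macrophage genes were higher in KO.

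**Figure D4:**
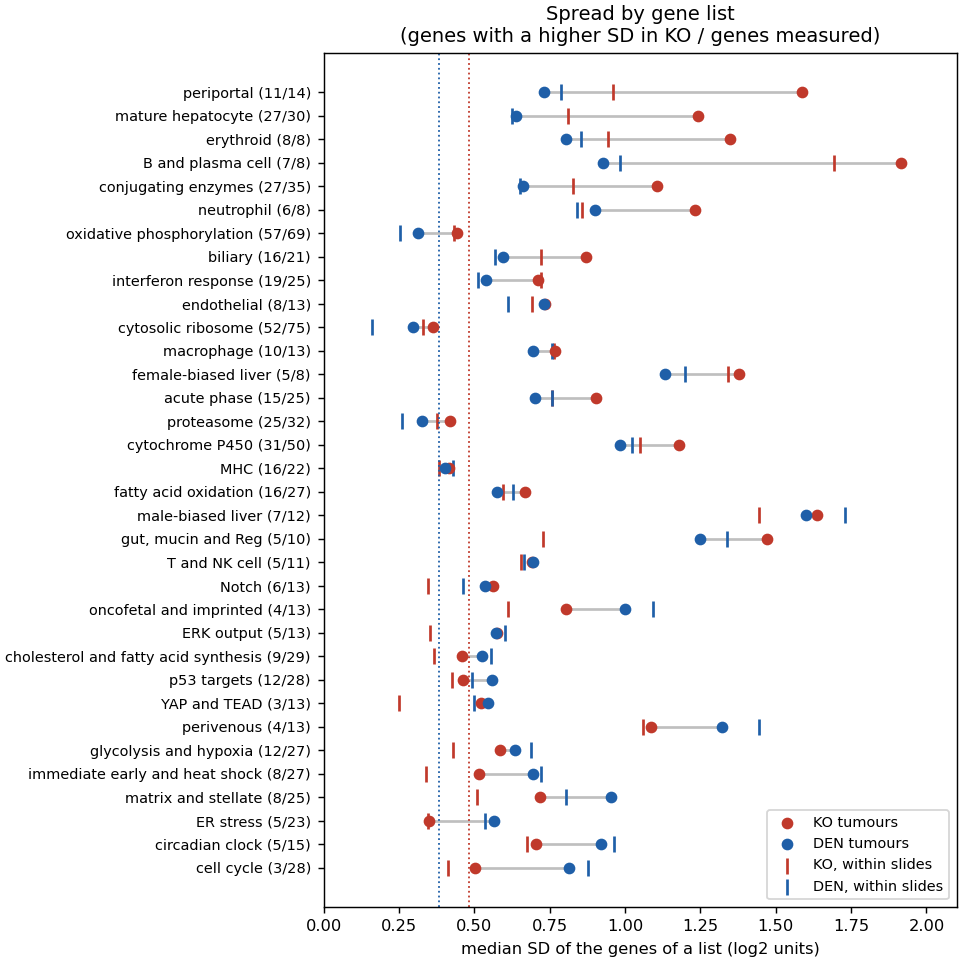
Median SD (log2 units) of the genes of each list in KO tumours (red) and DEN tumours (blue), with short bars for the medians within slides, dotted lines at the medians over all genes (0.481 and 0.383), and the count of genes with the higher SD in KO beside each name. Mature hepatocyte and periportal genes lie to the right in KO (1.24 and 1.59) and cell cycle genes in DEN (0.81 against 0.50).

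Position in the genome, which the choice of genes did not use, also separated KO tumours. For each array the median deviation of the genes of a chromosome from the group mean was taken, relative to all genes. The SD of this value over arrays was above 0.1 for 6 of 20 chromosomes in KO tumours (9, 12, 13, 14, 15 and X) and for 1 in DEN tumours (3). In the livers no chromosome reached this level: the highest was 0.014 in KO livers and 0.044 in WT livers. On chromosome 13, KO tumour 4 stood at -0.34 and the other 5 between -0.00 and 0.10. On chromosome 14, KO tumour 1 stood at -0.26 and the rest between -0.00 and 0.13. On chromosomes 9 and 12, KO tumours 3, 5 and 6 were high (0.08 to 0.23) and tumours 1, 2 and 4 low (-0.19 to -0.09), a division that crossed the slides. The pair from 1 mouse, KO tumours 5 and 6, lay close together on both (0.20 and 0.15 on chromosome 9, 0.23 and 0.16 on chromosome 12). Among DEN tumours, tumour 1 stood at -0.24 on chromosome 3 over 761 genes and the other 6 between -0.03 and 0.09. The spread of single genes was even across chromosomes: the median SD of a chromosome's genes was 0.453 to 0.543 in KO and 0.365 to 0.416 in DEN.

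**Figure D5:**
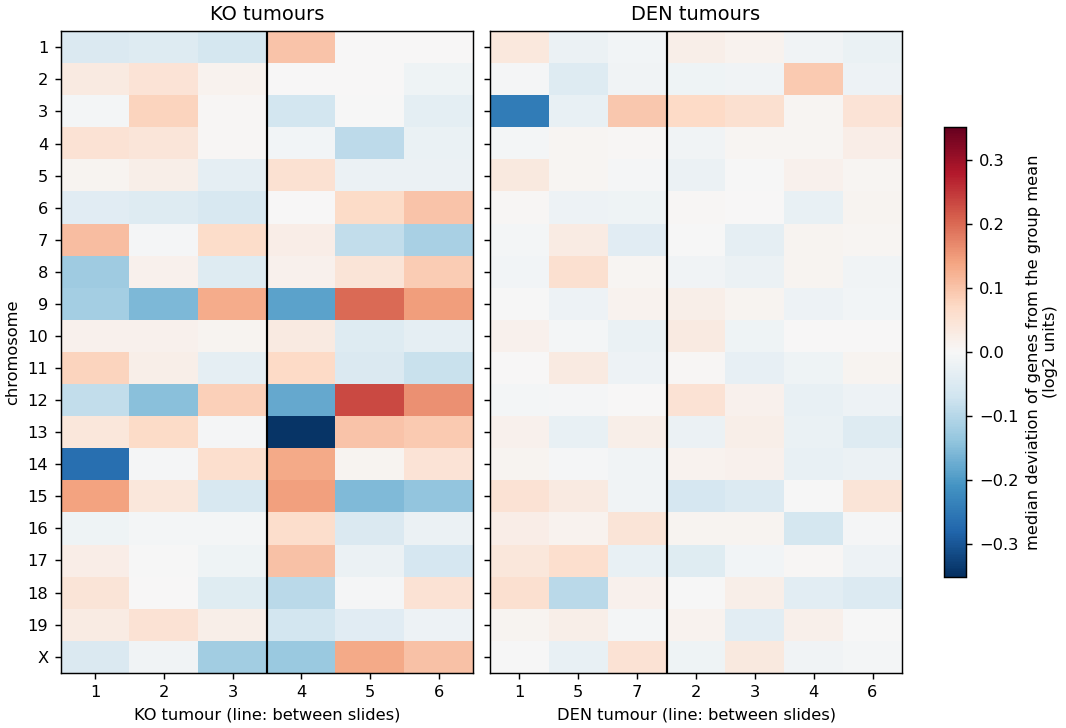
Median deviation of the genes of each chromosome from their group mean (log2 units, colour) in each KO and DEN tumour, with a vertical line between slides. KO tumour 4 is lowest on chromosome 13 (-0.34), KO tumour 1 on chromosome 14 (-0.26) and DEN tumour 1 on chromosome 3 (-0.24).

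Tumour-free livers gave the spread without tumours. The median SD over the same genes was 0.156 in 4 KO livers and 0.285 in 4 WT livers, each group on 1 slide. For all liver values, signal above background was required in the tumours and not in the livers. In the livers 51.0 to 63.3% of all probes were above background. For 92.1% of genes the KO tumours had a larger SD than the KO livers, and for 67.1% the DEN tumours had a larger SD than the WT livers. The 100 most variable genes of KO tumours had a median SD of 0.312 in KO livers, and the 100 of DEN tumours 0.594 in WT livers. Both sets thus also had a higher median SD in liver than all genes did. The leading genes differed in this: Marco had SDs of 0.674 in KO livers and 0.9999 in WT livers, whereas Mup19 had SDs of 0.12 in KO livers and 0.17 in WT livers, and Cyp2e1 0.11 and 0.10. Wnt10a was above background in 1 of the 8 livers.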

How the data were processed

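Cy3-labelled RNA of each sample was read on 1 Agilent array (21 arrays). Per the file headers, the authors read spots with Agilent Feature Extraction 10.7.3.1, which gave a processed intensity, corrected for background and spatial trend, and an above-background mark. The authors' table of values is in log2 units; it was used as an alternative. Here spots marked as outliers were left out, spots of a probe averaged as log2 processed intensity, and each array's 75th percentile subtracted. The brightest probe stood for a gene. Names came from a RefSeq table of another build, by accession or symbol (8197 probes kept the file's name); probe coordinates are mm9. SDs were taken over arrays. For the test, absolute deviations from the group mean, scaled for group size, were averaged per mouse. They were compared with limma 3.58.1 in R 4.3.3 (two-sided, Benjamini-Hochberg over 15588 genes). The test was also run on simulated levels with independent arrays and no slide effect in unchanged genes. That run does not give its error rate on arrays that divide by slide. The mouse was read from the sample titles, and nothing says how mice were related. The p-values refer to these samples only. For genes that divided by slide they do not measure spread from mouse to mouse. The number of arrays limits the precision.

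Named genes were the 20 highest SDs with a table symbol in each group, the 6 largest SD ratios each way past the threshold, the most variable member of each list in each group, and 15 genes named in any case (Afp, Alb, Cdkn1a, Ddx3y, Epcam, Glul, H19, Igf2, Krt19, Krt7, Mki67, Sox9, Spp1, Trp53, Xist). Members and lists were chosen with earlier results of these data known. Alternatives covered background correction, scaling, filters, probe choice, test, replicate unit, slide and scan day, and leaving out each array.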

Additional observations from a re-analysis of the deposited data

Results flagged for a closer look

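Within groups of 4 to 7 arrays, 12 of 290 sets of values (list means, named genes and distances) had 1 array far from the rest, by Dixon's test. Chance flags about 1 in 20 of independent, unselected sets. Many named genes were chosen for a high SD, which a single far array raises, and lists share genes. That rate therefore does not apply here, and the flags are a description. In KO tumour 4, Krt19 stood at -3.98 (others 1.05 to 3.41), Orm3, an acute phase protein, at 5.45 (0.48 to 2.29), Asns, asparagine synthetase, at 0.44 (1.79 to 2.54) and the circadian clock list at 0.93 (-0.35 to -0.01). In KO tumour 6, the endothelial list stood at 1.29 (-0.66 to -0.02) and Glul at 3.56 (1.89 to 2.46). Gkn3, a stomach protein gene, stood at 3.09 in KO tumour 3 (-4.57 to -2.50), and Jchain at -1.05 in KO tumour 2 (4.12 to 5.86). In DEN tumours, Cldn7, a tight junction protein, stood at 3.18 in tumour 1 (-1.40 to 0.35), Aurka at 5.71 in tumour 3 (-1.49 to 1.54), Glul at 4.53 in tumour 5 (-1.72 to 0.91), and the circadian clock list at -0.76 in tumour 3 (0.04 to 0.38).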

How the results depend on the processing

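Leaving out slides or scan days changed the main results most. Without KO slide 5 (chosen after seeing the data; 3 KO arrays against 7 DEN arrays, which by itself lowers the KO median and share, and leaving out slide 4 was not run) 0 genes passed, 40.2% of genes had the higher SD in KO, the KO median was 0.328, the distance difference -0.047 and the ratio of chromosome spread (KO over DEN, median of chromosomes) 1.75 in place of 2.92. In the shared scan day the count was 0, the medians 0.328 and 0.289 and the distance difference -0.016; with slides centred, 0 and a KO median of 0.378. Without the KO tumours lacking Y-linked signal (also chosen after seeing the data) 60 genes passed and the distance difference was 0.115 (exact permutation p = 0.214). The count of genes, 310, was 156 in the brighter part of the genes, 149 for deviations from the median, 14 by an F test, 613 with arrays as replicates, 205 with mates averaged first, 162 with 1 tumour per mouse, 1 with an intensity trend, 485 for squared deviations and 2246 with slide as a random block. Leaving out 1 array gave 152 (without KO tumour 1) to 473 genes (without KO tumour 2), a distance difference of 0.081 to 0.169, 56.7 to 66.6% of genes higher in KO, KO medians of 0.439 to 0.486, DEN medians of 0.369 to 0.391 and chromosome ratios of 2.47 to 3.45. The distance difference was 0.136 in the brighter part and 0.164 with 1 tumour per mouse (both p = 0.0556, exact permutation). Medians were 0.379 and 0.299 after normexp and quantile scaling, and 0.599 and 0.487 with probes above background on 4 arrays (chromosome ratio 1.70). The DEN median was 0.335 in the brighter part, 0.328 with mates averaged and 0.335 as a median absolute deviation. The log2 SD ratio (KO over DEN) changed sign with slides centred for Sun5 (-0.71), Gstm3 (-0.15) and Lrrc2 (-0.38), in the shared scan day for Sun5 (-1.57) and D930007P13Rik (1.002), and without slide 5 for Sun5 (-1.21), Aoc3 (-0.30), Msi1 (-0.19), Lrrc2 (-0.88), Fcrl5 (-0.67) and Sall4 (-0.21). Beyond the settings' own construction, the cause was not tested. No paired analysis was possible because no label ties a KO tumour to a DEN tumour.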
